A study of Bos taurus with 90 samples.

Results

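ABCA6, a lipid transporter of the ATP-binding cassette family, was followed in liver RNA-Seq libraries of Charolais (CH) and Holstein-Friesian (HF) steers. It is 1 of the 24616 genes in the deposited count file (identifier ENSBTAG00000006921). It was chosen by its normalized counts in 1 comparison, in which the study named it among the genes that differed between CH steers of low and high residual feed intake (RFI) offered zero-grazed grass, so its values there are described without a test. RFI is the feed an animal eats beyond what its growth and size predict, and low RFI steers are the more feed-efficient. All steers were sampled by liver biopsy at the end of 3 phases that followed each other in the same order: high-concentrate diet 1 (H1, barley-based concentrate with restricted grass silage), zero-grazed ryegrass (ZG), both in the growing period, and the same concentrate diet again in the finishing period (H2). Phase therefore cannot be told apart from age and season. RFI was ranked afresh within breed in every phase, and the most divergent steers were sequenced. The 90 libraries fall into 12 groups. The CH groups hold 9 low and 11 high RFI steers under H1, 3 and 3 under ZG, and 9 and 8 under H2, and the HF groups hold 7 and 9, 10 and 8, and 5 and 8, respectively.

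ABC transporters of subfamily A are large membrane proteins that use ATP to move lipids across or out of membranes. Well-studied members load cholesterol and phospholipid onto apolipoproteins or transport lipids in the retina and the lung. ABCA6 belongs to the ABCA5, ABCA6, ABCA8, ABCA9 and ABCA10 branch, whose genes lie side by side in mammals, and its own substrate is less well defined. In the RefSeq gene table of cattle (assembly ARS-UCD2.0), ABCA6 lies between ABCA10 and ABCA9, with ABCA5 beyond ABCA10. The counts carry identifiers without names or positions, so these neighbours were not analysed here, and whether short reads are shared among these related genes was not tested. The liver makes and exports lipoproteins and is the main site of cholesterol and bile acid turnover.

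Reads counted on genes numbered 9097695 to 63621304 per library, with a median of 18858293, and no library was identical to another. ABCA6 received 634 to 8543 reads per library, so that the counting error of its level was at most 3.97% in any library. Levels are given as CPM, counts scaled to the TMM-normalized library size, and are not corrected for gene length. None of 57 liver, blood, vessel, muscle and other cell type markers could be matched to an identifier. FGA and FGG, fibrinogen chains made by hepatocytes and looked up after the values were known, stood at 5526 to 33129 CPM and 5697 to 38878 CPM over all libraries. Steer number 1797 carries a CH label under H1 (139 CPM of ABCA6) and an HF label under H2 (106 CPM), and it was kept as labelled. In biopsied tissue, fewer cells of a type and less RNA per cell cannot be told apart.

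ABCA6 was detected in every library at a moderate level. Over the 90 libraries it ranged from 68.7 to 312 CPM with a median of 123 CPM, and 70 libraries lay between 80 and 160 CPM. Only 4 libraries exceeded 200 CPM, of which 312 CPM (steer 419, CH, high RFI under H2) and 289.8 CPM (steer 1639, HF, high RFI under H2) stood far above the rest of their groups. The next steer was at 131.5 CPM in the group of steer 419 and at 158 CPM in the group of steer 1639. Within breed and phase, the SD of log2 CPM was 0.40 for ABCA6 against a median of 0.33 over 13945 genes, and 31.4% of genes varied more. Among the 523 genes within 0.5 log2 of its mean CPM, the median SD was 0.29 and 24.7% varied more.

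**Figure D1:**
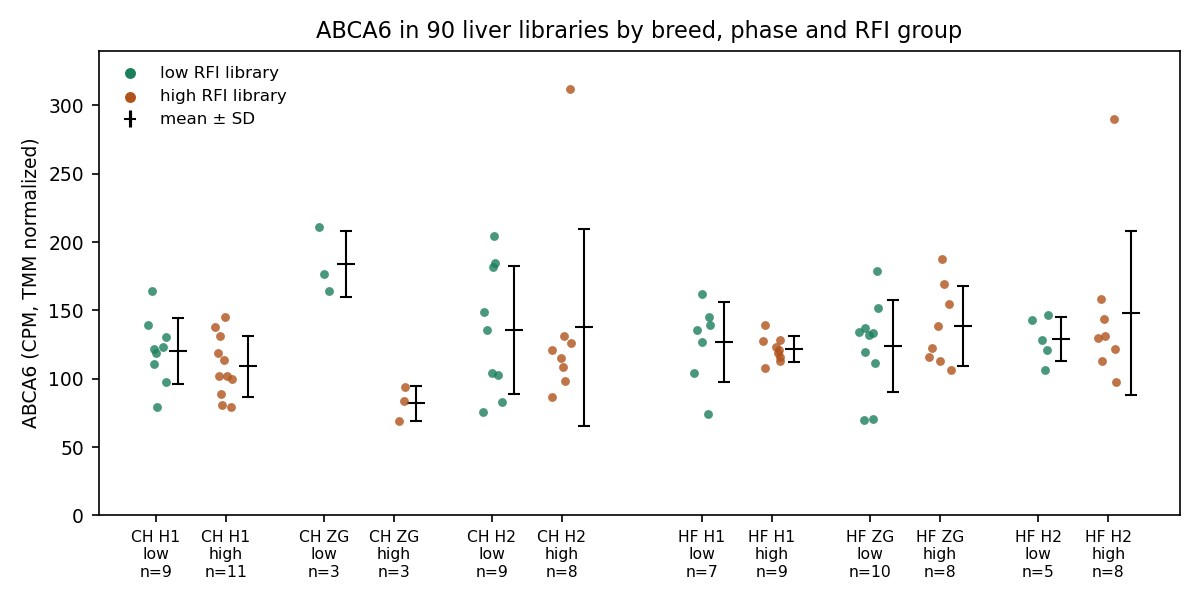
ABCA6 in CPM (linear axis from 0) for each of the 90 libraries, by breed, phase and RFI group, where green points are low RFI libraries, brown points are high RFI libraries and black bars give the mean ± SD. The low and high RFI points are apart in CH under ZG (165 to 211 CPM against 68.7 to 94.2 CPM), the comparison that chose the gene. They overlap in the other 5 sets, and the points at 312 and 289.8 CPM are steers 419 and 1639.

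Ordered by mean, the groups ran from 184 ± 24.3 CPM (SD, n = 3) in low RFI CH steers under ZG to 82.2 ± 12.8 CPM (SD, n = 3) in their high RFI counterparts. Between these ends the other 10 groups had means of 148, 138, 137, 136, 129, 127, 124, 122, 121 and 109 CPM, in the order HF H2 high, HF ZG high, CH H2 high, CH H2 low, HF H2 low, HF H1 low, HF ZG low, HF H1 high, CH H1 low and CH H1 high. Among these 10, each mean differed from the next by less than the SD of either group. HF H1 high was the most uniform of them, with 122 ± 9.31 CPM (SD, n = 9), and CH H2 high and HF H2 high were the least uniform, with SDs of 72.2 CPM (n = 8) and 60.1 CPM (n = 8).

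In the comparison that chose the gene, the high RFI CH steers under ZG had 68.7 CPM (steer 437), 83.6 CPM (steer 307) and 94.2 CPM (steer 1816). The low RFI steers had 165 CPM (steer 1831), 176 CPM (steer 788) and 211 CPM (steer 357). The groups did not overlap, and the low RFI mean was 1.16 higher on the log2 CPM scale, a 2.24-fold difference. When each steer was left out in turn, the difference ranged from 1.04 to 1.27 on the log2 scale. Leaving out a steer cannot remove a difference between groups that do not overlap, so this range is no support for it. High RFI libraries were at or below 94.2 CPM and low RFI libraries at or above 165 CPM, which leaves no value between them. Steers 307, 1816 and 1831 also had libraries from other phases, and their levels there were close to those under ZG. Steer 1831 had 164 CPM under H1, the highest of the 20 CH libraries of that phase. Steer 307 had 80.6 CPM under H1 (the third lowest of 20) and 83.2 CPM under H2, where it was in the low RFI group. Steer 1816 had 97.4 CPM under H1, where it was also in the low RFI group.

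No difference between RFI groups passed the test in the other breed and phase sets. The log2 fold changes below are those of low over high RFI, and a gene was called at an adjusted p under 0.1. In CH under H1, ABCA6 ranged from 79.5 through a median of 122 to 164 CPM in low RFI and from 79.0 through 102 to 145 CPM in high RFI steers. The log2 fold change was 0.16 (95% CI -0.09 to 0.41, adjusted p = 0.636, edgeR quasi-likelihood test), in a comparison in which edgeR called 0.0155% of genes (2 genes) and DESeq2 called 160, with ABCA6 in neither. In CH under H2, low RFI steers ranged from 75.8 through 136 to 204 CPM and high RFI steers from 86.8 through 118 to 312 CPM. The estimate was -0.0039 (95% CI -0.54 to 0.53, adjusted p = 0.999, edgeR), and without steer 419 it became 0.28. The groups overlapped in both phases.

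In HF steers the RFI groups overlapped in all 3 phases. Under H1, low RFI steers ranged from 73.9 through 136 to 162 CPM and high RFI steers from 108 through 121 to 139 CPM, with a log2 fold change of 0.06 (95% CI -0.20 to 0.32, adjusted p = 0.944, edgeR). The high RFI values all lay inside the low RFI range. Under ZG, the diet on which the CH groups were apart, HF low RFI steers ranged from 69.7 through 133 to 179 CPM and high RFI steers from 106 through 131 to 188 CPM. Their log2 fold change was -0.17 (95% CI -0.55 to 0.20, adjusted p = 1.00, edgeR). Under H2, low RFI steers ranged from 106 through 128 to 146 CPM and high RFI steers from 97.7 through 130.5 to 289.8 CPM. The log2 fold change was -0.21 (95% CI -0.69 to 0.27, adjusted p = 1.00, edgeR) and 0.02 without steer 1639.

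As folds, the upper 95% bounds of low over high RFI were 1.33, 1.45, 1.25, 1.15 and 1.21 in CH H1, CH H2, HF H1, HF ZG and HF H2. The 2.24-fold difference in CH under ZG chose the gene and is no measure for these bounds. Whether that comparison differs from the others was not tested. Taken as 1 effect over the 84 libraries outside CH ZG, the fold was 0.986 (95% CI 0.874 to 1.11), a log2 fold change of -0.02 (adjusted p = 1.00, edgeR) that was 0.07 without steers 419 and 1639. Exact permutation tests of mean log2 CPM over the steers, two-sided, gave p = 0.288, 0.958, 0.909, 0.325 and 0.682 in the same order of 5 sets, and the smallest was 0.866 after adjustment over the 8 RFI and breed tests of this kind.

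edgeR called 0% of genes in CH H2, HF H1, HF ZG, HF H2 and over the 84 libraries, where 355, 863, 261, 435 and 536 genes had an unadjusted p under 0.05 and DESeq2 called 4, 26, 2, 5 and 2 genes. ABCA6 was not among the genes called by either tool in these comparisons.

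No difference between the breeds passed the test in any phase. Under H1, CH libraries had 114 ± 23.3 CPM (SD, n = 20) and HF libraries 124 ± 19.9 CPM (SD, n = 16). CH over HF gave a log2 fold change of -0.13 (95% CI -0.31 to 0.05, adjusted p = 0.569, edgeR), where edgeR called 4.26% of genes. Under ZG, CH had 133 ± 58.4 CPM (SD, n = 6) and HF 130 ± 31.8 CPM (SD, n = 18). The log2 fold change was 0.01 (95% CI -0.42 to 0.44, adjusted p = 0.999, edgeR), 0.0152% of genes were called, and the sign turned with small changes of the fit. No CH library under ZG lay near the CH mean, since the values leave a gap between 94.2 and 165 CPM. These CH values chose the gene, and the fit gave both breeds the same RFI effect. The gap between the CH RFI groups therefore counts in part as spread in the ZG test. Under H2, CH had 137 ± 58.2 CPM (SD, n = 17) and HF 141 ± 47.9 CPM (SD, n = 13), with a log2 fold change of -0.03 (95% CI -0.40 to 0.35, adjusted p = 1.00, edgeR) where 0.590% of genes were called. Two-sided permutation tests of mean log2 CPM gave p = 0.185, 0.813 (exact) and 0.617 for H1, ZG and H2.

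ABCA6 was not called in any contrast between phases. In CH, mean ABCA6 was 114 CPM under H1, 133 CPM under ZG and 137 CPM under H2. The log2 fold changes were 0.17 for ZG over H1 (95% CI -0.24 to 0.58, adjusted p = 0.580), 0.07 for H2 over ZG (95% CI -0.35 to 0.50, adjusted p = 0.868) and 0.24 for H2 over H1 (95% CI -0.05 to 0.54, adjusted p = 0.140), all from edgeR. In the same contrasts edgeR called 21.7%, 5.07% and 67.7% of genes, and without steer 788 (CH, low RFI under ZG) the calls for ZG over H1 went from 2918 to 542 and those for H2 over ZG from 683 to 2783. In HF, mean ABCA6 was 124, 130 and 141 CPM under H1, ZG and H2. The log2 fold changes were 0.09 (95% CI -0.16 to 0.34, adjusted p = 0.553), 0.09 (95% CI -0.17 to 0.35, adjusted p = 0.778) and 0.18 (95% CI -0.09 to 0.45, adjusted p = 0.251) in the same order, against 58.3%, 5.05% and 61.8% of genes called. The 3 contrasts of a breed share libraries and are not independent of each other. In CH, the ZG values chose the gene, and the fit gave all phases the same RFI effect. The gap between the RFI groups under ZG therefore counts in part as spread in the CH contrasts.

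A single library raised the H2 mean of each breed. Without steer 419, H2 over H1 in CH fell to 0.08 and H2 over ZG turned to -0.05 on the log2 scale. Without steer 1639, H2 over H1 in HF fell to 0.04 and H2 over ZG turned to -0.04. The median was 116 CPM under H1 and 121 CPM under H2 in CH, and 125, 133 and 129 CPM under H1, ZG and H2 in HF. In CH under ZG the median, 129 CPM, is the midpoint of the gap between the RFI groups, where no library stood. The change from H1 to ZG was 0.14 larger in CH than in HF on the log2 scale (95% CI -0.32 to 0.60, adjusted p = 1.00, edgeR), and that from H1 to H2 was 0.06 larger (95% CI -0.34 to 0.47, adjusted p = 1.00, edgeR). edgeR called 0% of genes in both tests of a breed difference, with 427 and 287 genes at an unadjusted p under 0.05, and DESeq2 called 1 and 0 genes. Both tests also gave all sets the same RFI effect and include the CH values under ZG that chose the gene.

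**Figure D2:**
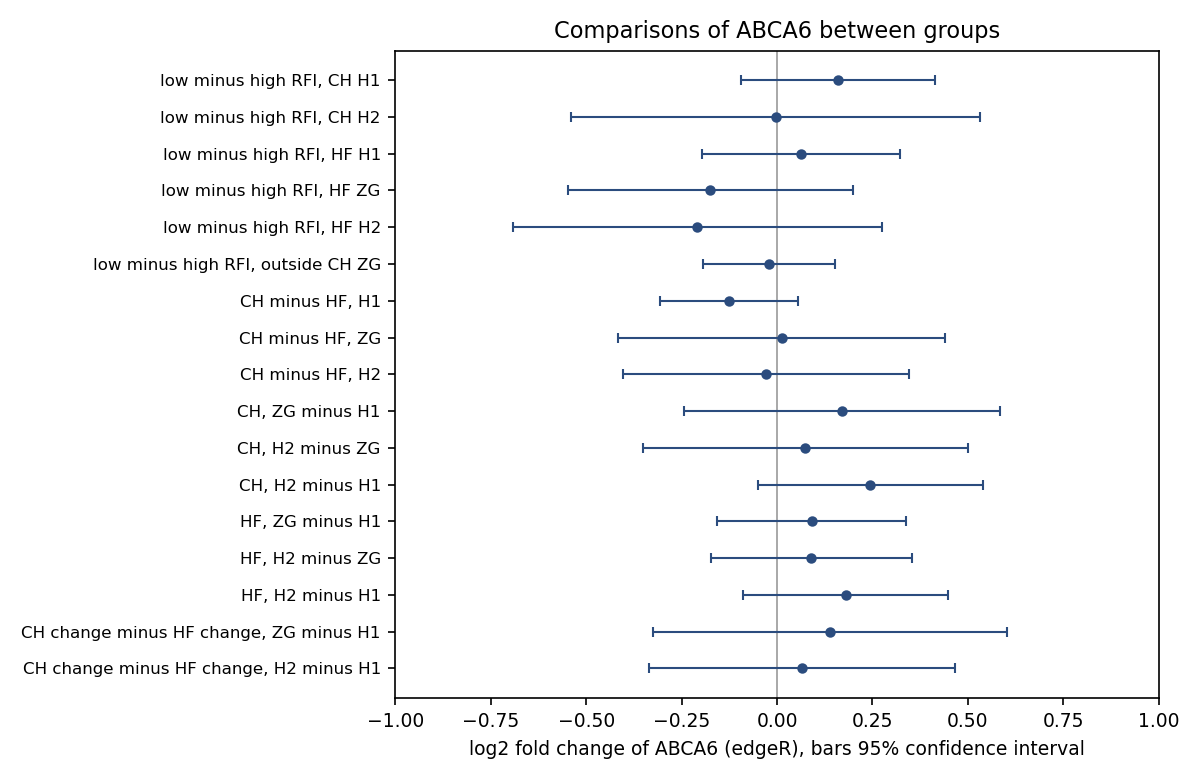
Log2 fold change of ABCA6 from edgeR (points) with its 95% confidence interval (bars) for the 17 tested comparisons between RFI groups, breeds and phases, where the line at 0 marks no difference. All intervals include 0, and their upper ends reach at most 0.60.

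Steer numbers with a library in more than 1 phase allowed ABCA6 to be followed between phases. A number that recurs under a single breed was taken as the same animal. There were 73 steer numbers in all. Libraries from several phases under a single breed were present for 14 of these, 6 in CH and 8 in HF, and 6 of the 14 changed RFI group between their first and last library. In CH, 5 of 6 steers changed by less than 10% between their first and last phase. The mean absolute log2 ratio between these phases was 0.14 for ABCA6 and 0.33 for the median gene, and 4.20% of genes had a smaller one. Genes of every abundance entered this ranking, and shifts of the phase means were not removed. With the phase means removed, the mean absolute change of ABCA6 was 0.20, which was not ranked against other genes. These values are a description, because the ZG values of steers 1816 and 1831 chose the gene. Steer 1831 had 164 and 165 CPM (H1, ZG), steer 364 had 100.04 and 98.2 CPM (H1, H2) and steer 1816 had 97.4 and 94.2 CPM (H1, ZG). Steer 307, with libraries in all 3 phases, had 80.6, 83.6 and 83.2 CPM, and steer 1100 had 119 and 126 CPM (H1, H2). The exception was steer 1320, which had 79.0 CPM under H1 and 121 CPM under H2. Steers 307, 1100 and 1816 changed RFI group while their ABCA6 level changed by 3.23%, 5.74% and -3.26%.

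In HF, 2 of 8 steers changed by less than 10%, and the change over all genes was not computed for HF. Steer 5632 had 145, 134 and 144 CPM in H1, ZG and H2, and steer 2101 had 128 and 129 CPM in H1 and H2. Steer 2071 fell from 139 to 121 CPM between H1 and H2, and steers 2065 and 2069 went from 108 to 152 CPM and from 121 to 155 CPM between H1 and ZG. The largest changes were in steer 2220, from 73.9 to 128 CPM (H1, H2), steer 5612, from 69.7 to 143 CPM (ZG, H2), and steer 1639, from 123 to 289.8 CPM (ZG, H2). Steers 2220 and 5612 had the lowest HF library of their first phase.

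**Figure D3:**
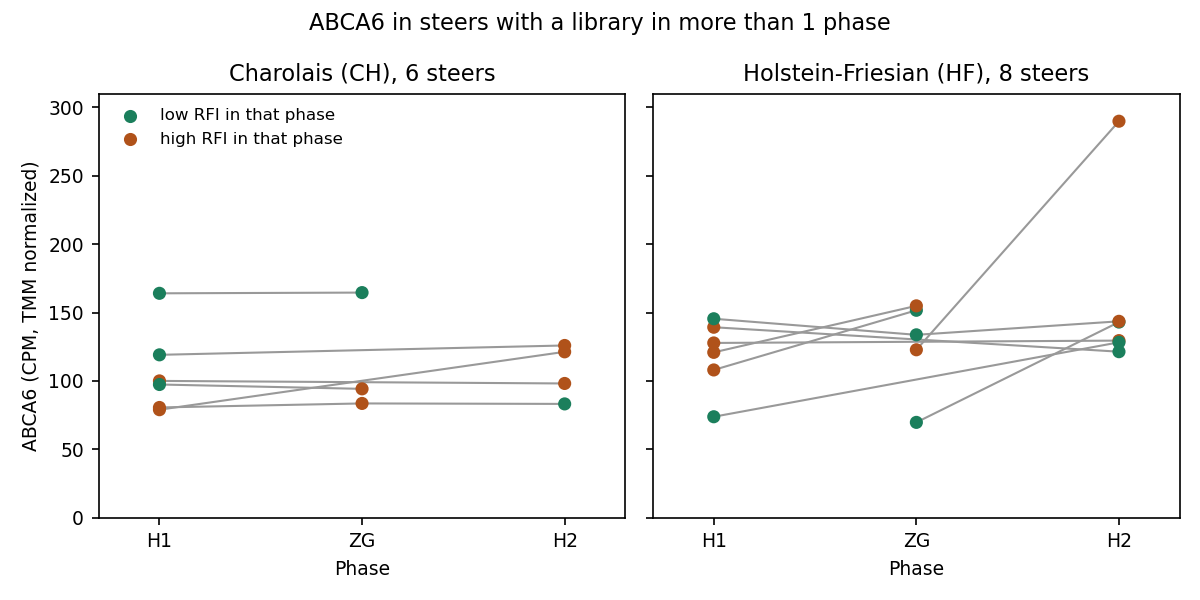
ABCA6 in CPM (linear axis from 0) of the 14 steers with libraries in more than 1 phase, with CH on the left and HF on the right, lines joining the libraries of a steer and colours giving the RFI group in that phase (green low, brown high). The CH lines are nearly flat apart from steer 1320 (79.0 to 121 CPM), and the HF lines of steers 1639, 5612 and 2220 rise by over 50 CPM.

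To compare phases, each level was expressed as its deviation from the mean log2 CPM of the breed and phase, and first and last deviations were correlated over steers. Over the 14 steers, Pearson's r was 0.31 (permutation p = 0.284) and Spearman's rho 0.38 (permutation p = 0.181). With deviations from the means of the breed, phase and RFI group the direction turned, to r = -0.05 (permutation p = 0.879) and rho = -0.24 (permutation p = 0.400). Without steers 5612 and 1831, the 2 farthest from the median first deviation, r was 0.29 (permutation p = 0.369). The last libraries of steers 1816 and 1831 are CH libraries under ZG, values by which the gene was chosen, and without these 2 steers r was 0.21 (n = 12, permutation p = 0.519) and rho 0.19 (permutation p = 0.557). The agreement between phases passed the test in none of these. Over 13945 genes the median r of the 14 steers was 0.13, and 27.2% of genes had a higher r than ABCA6. In HF alone r was 0.11 (n = 8, exact permutation p = 0.790), where the median gene had 0.08 and 45.8% of genes were higher. Adjusted over these 3 relations, the p-values of r were 0.779, 0.779 and 0.790 for the 14 steers, the 12 steers and the HF steers. In HF, r was -0.50 without its 2 farthest steers (6 steers left) and 0.0043 without steer 1639. In CH alone r was 0.80 and rho 0.60 (n = 6). These are given as a description, and their p-values are not read as tests, because 2 of the 6 last values chose the gene. The median gene had an r of 0.41 in these CH steers, and 12.4% of genes were higher than ABCA6.

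**Figure D4:**
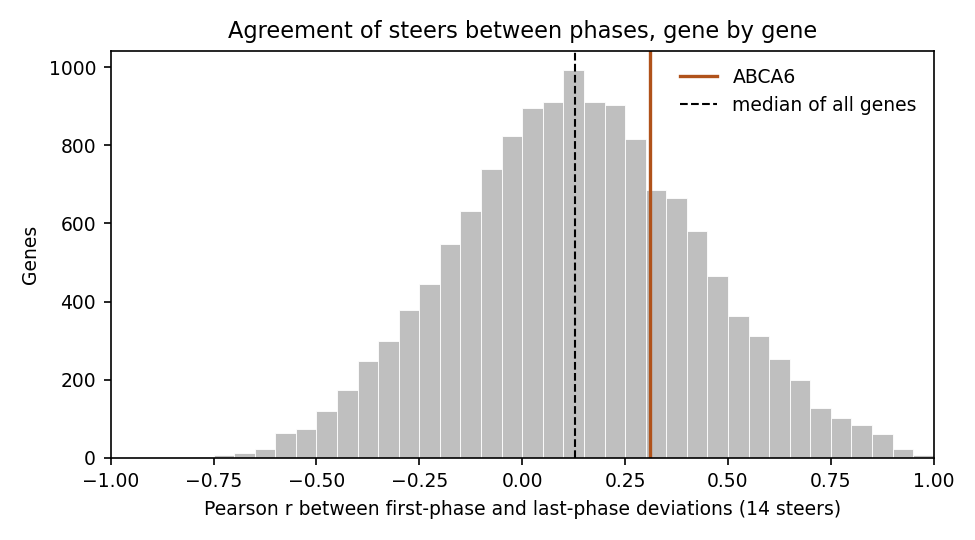
Histogram over 13945 genes of Pearson's r between the first-phase and last-phase deviations of the 14 repeated steers, with ABCA6 (solid line) at 0.31 and the median gene (dashed line) at 0.13. ABCA6 lies to the right of the median, and 27.2% of genes lie further right.

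Few other genes of lipid and sterol transport could be followed, because names were given for 352 identifiers only, 328 of them with a symbol. Of the ABCA subfamily 2 of 12 genes were matched (ABCA4 and ABCA6), of 36 hepatic lipid transporters and lipoprotein genes 1 (APOC3) and of 33 sterol genes 2 (NR0B2 and SOAT2), too few to describe any list. All of these stand on the study's lists of RFI genes, ABCA4 and SOAT2 for CH under H1 and APOC3 and NR0B2 for CH under ZG, so they are not a sample of their pathways. ABCA4, known for retinoid lipid transport in the eye, was low, at 0.775 to 11.5 CPM, against 68.7 to 312 CPM for ABCA6, on a scale that is not corrected for gene length. ABCA4 fell between H1 and H2 in both breeds, by 0.66 on the log2 scale in CH (SE 0.25, adjusted p = 0.0199, edgeR) and by 0.66 in HF (SE 0.23, adjusted p = 0.0161, edgeR). It also fell between H1 and ZG in HF, by 0.58 (SE 0.21, adjusted p = 0.0196, edgeR), while in CH the estimate was -0.42 (SE 0.35, adjusted p = 0.413, edgeR).

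NR0B2, the small heterodimer partner that represses bile acid synthesis, fell between H1 and ZG in CH by 0.87 on the log2 scale (SE 0.34, adjusted p = 0.0815, edgeR) and in HF by 1.25 (SE 0.27, adjusted p = 0.000300, edgeR). It fell between H1 and H2 by 0.89 in CH (SE 0.24, adjusted p = 0.00136, edgeR) and by 1.05 in HF (SE 0.29, adjusted p = 0.00343, edgeR). SOAT2, which esterifies cholesterol for storage and lipoprotein export, fell between H1 and H2 in CH by 0.70 (SE 0.22, adjusted p = 0.00694, edgeR), and its estimate in HF was 0.14 (SE 0.29, adjusted p = 0.696, edgeR). APOC3, an apolipoprotein that slows clearance of triglyceride-rich particles, had 729 to 3915 CPM and passed the test in none of the 6 diet contrasts with edgeR. None of these 4 genes was called by edgeR in the 5 tested RFI comparisons or between breeds. Whether the change of any of them differed from that of ABCA6 was not tested.

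The genes whose level was most like that of ABCA6 were found by Spearman's rho of log2 CPM over the 90 libraries, given as a description because libraries share breed, phase and depth. Of 13944 other genes, 78 had a rho above 0.5 and 113 a rho below -0.5. The 10 highest ran from 0.60 to 0.56, and 3 of them have a symbol. C5, a complement component secreted by the liver, had a rho of 0.60, LBP, the acute phase protein that binds lipopolysaccharide, 0.59, and FGG, the fibrinogen gamma chain, 0.57. With deviations from breed and phase means the values were 0.64, 0.65 and 0.60, and outside CH ZG they were 0.55, 0.55 and 0.52. The 5 lowest ran from -0.61 to -0.59, and the 4 with a symbol were CTTN, which encodes the actin-binding protein cortactin, MACROD1, TTYH2 and C29H11orf86, with -0.61, -0.60, -0.59 and -0.59. Outside CH ZG these were -0.57, -0.54, -0.56 and -0.55. All 7 named genes stand, like ABCA6, on the study's list for CH under ZG, and only 327 of the genes compared could be named.

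ABCA6 also moved with the main axis of variation among libraries. The first principal component of all other genes held 33.2% of the variance, and its rho with ABCA6 was 0.38 over 90 libraries and 0.32 over the 84 outside CH ZG. In CH under ZG, the high RFI libraries scored from -32.6 to -15.5 and the low RFI libraries from -5.13 to 67.3 on this component, so that the RFI groups were apart on it as well, with steer 788 far above the others. Its part in the RFI difference of ABCA6 was not tested. The share of reads taken by the 20 most abundant genes was 30.5% to 32.2% in the high RFI and 32.2% to 39.0% in the low RFI libraries of that comparison. Total counts overlapped between these groups, and their rho with ABCA6 over all libraries was -0.13.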

How the data were processed

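RNA from liver biopsies was prepared with a stranded kit and sequenced in short single-end reads. The authors trimmed the reads, aligned them to UMD3.1 with STAR, counted them per gene of Ensembl 87 and deposited raw counts without normalization. Which strand column was used is not given in the sources used here. Libraries were grouped by the breed, diet and RFI labels, and steers were paired across phases by the animal number in the titles. ABCA6 and the gene lists were chosen with earlier results of these data known.

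Counts were fitted across all genes with edgeR 4.0.16 in R 4.3.3 (TMM, filterByExpr, robust quasi-likelihood F test, Benjamini-Hochberg adjustment, called under 0.1), each RFI comparison alone as in the study, and breed and phase contrasts with RFI group as a covariate. The SE is the log2 fold change divided by the square root of F. Log2 CPM used a pseudocount of 0.5, and permutation tests were exact or had 100000 resamples. Simulated counts with 200 planted genes were used to test the scripts. Alternatives used DESeq2 1.42.0, limma 3.58.1 (voom, with the steer as a block by duplicateCorrelation), DESeq2 size factors, other filters, 1 fit of all 12 groups and left-out libraries. Alternatives without steers 419 and 1639, the steer agreement without CH ZG libraries and the comparison of steer changes between breeds were added after the data were seen. Python 3.11.15, scipy 1.17.1 and matplotlib 3.10.9 served for the steer comparisons and figures.

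Named genes are ABCA6, ABCA genes passing the filter, called members of the lists, and the 10 genes with the highest and 5 with the lowest rho to ABCA6. APOC3, FGA and FGG levels were looked up outside this rule. Names came from the 352 identifiers of the study's supplementary list, since 0 entries of the reference gene table carry an Ensembl identifier. Fewer than 80% of each list were matched, so the list and cell marker checks are void. Sequences and positions are not reported here. The counting error given for ABCA6 covers counting only, while the edgeR intervals also take in the spread between steers.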

Additional observations from a re-analysis of the deposited data

Results flagged for a closer look

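ABCA6 stood at 312 CPM in steer 419, a high RFI CH steer under H2, while the other 7 libraries of its group lay between 86.8 and 131.5 CPM. The gap to the next library was 0.802 of the group's whole range, above Dixon's 95% critical value of 0.526 for 8 samples. The library held 22631012 counts, of which 6168 were on ABCA6, and the 20 most abundant genes took 39.4% of its reads. On the first principal component of all other genes it scored -5.89, inside the range of its group (-39.5 to 24.0).

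Steer 1639, a high RFI HF steer under H2, had 289.8 CPM, while the other 7 libraries of its group lay between 97.7 and 158 CPM. Its gap was 0.685 of the range against the same critical value of 0.526. The library held 12067024 counts, of which 3002 were on ABCA6, and the 20 most abundant genes took 43.3% of its reads. On the first principal component it scored 50.9, the highest of its group (lowest -37.7, median -1.89), and the part of this in its ABCA6 level was not tested. The same steer had 123 CPM under ZG. Steer 419 had no other library. For normally distributed values, chance alone marks about 1 in 20 groups in this way, and 9 groups of 4 to 10 libraries were examined. The rule was applied to CPM without a log transform, and whether the marks hold on the log scale was not tested. The groups of 3 and of 11 libraries were not examined.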

How the results depend on the processing

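The 17 tested comparisons, the steer agreement and the CH ZG difference were recomputed under 170 alternatives. ABCA6 passed an adjusted p of 0.1 in none of the 142 alternatives of the tested comparisons, and the 7 of the CH ZG difference carry no test. The steer agreement had a p under 0.05 in none of its 21. These include CH steers alone, whose p is not read as a test because some of the values chose the gene. The direction turned in 16, which are given next. Without steers 419 and 1639 the log2 RFI effect was 0.28 in CH H2, 0.019 in HF H2 and 0.068 outside CH ZG, and H2 over ZG was -0.053 in CH and -0.041 in HF. The breed effect in ZG (0.01) was -0.0095 with DESeq2, -0.0090 with DESeq2 size factors in edgeR, -0.0049 without a filter on low counts and -0.0034 with at least 10 counts in every library. Leaving out each CH ZG steer in turn gave -0.15 to 0.15 for that effect, -0.052 to 0.23 for H2 over ZG in CH, 0.0060 to 0.28 for ZG over H1 in CH and -0.035 to 0.27 for the breed difference in ZG over H1. Leaving out each low RFI HF steer of H2 gave an RFI effect of -0.26 to -0.14. The steer agreement ranged from r = 0.20 to 0.38 without each steer in turn, and with deviations from the means of the RFI groups it was -0.046, a centring that takes out the CH ZG difference.

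Steer numbers that recur under a single breed were taken to name the same animal, which is the pairing used and was not verified otherwise. Number 1797, labelled CH and HF, was paired in an alternative only. limma-voom with a replicate block for the animal gave log2 effects of -0.01 for RFI outside CH ZG, 0.13, 0.05 and 0.18 for ZG over H1, H2 over ZG and H2 over H1 in CH, and 0.07, 0.08 and 0.15 in HF, and changed no call of ABCA6. The correlation it estimated over all genes was 0.54 in CH and 0.05 in HF. In CH it moved the genes called from 3875 to 5887 for ZG over H1 (2918 with edgeR) and from 812 to 1266 for H2 over ZG (683 with edgeR).

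Counts of all genes called in other comparisons also moved by more than 1.5 times. With DESeq2 they went from 2 to 160 for RFI in CH H1, from 2 to 14 and from 75 to 158 for breed in ZG and H2, and from 683 to 1299 and from 664 to 1025 for H2 over ZG in CH and HF. With all groups in 1 fit, the RFI calls in CH H1, CH H2, HF H1 and HF ZG were 4, 5, 13 and 2. With no filter, 8 genes were called for RFI outside CH ZG and 0 for breed in ZG. At least 10 counts in every library left 1 for RFI in CH H1 and 34 for breed in H2, and DESeq2 size factors left 0 for breed in ZG. Without each CH ZG steer in turn, ZG over H1 in CH called 542 to 3420 genes, H2 over ZG 175 to 2783 and breed in ZG 0 to 6, with the lowest ZG over H1 and the highest H2 over ZG counts without steer 788. 

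With 3 steers per group, the smallest two-sided p of an exact permutation test of CH under ZG is 0.1. The lowest count of ABCA6 was 634, so depth set a smaller limit than the spread between steers.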

Other observations

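The absolute change of a steer between its first and last phase was compared between the breeds after the values had been seen. As a change of the deviation from the breed and phase mean, it averaged 0.20 ± 0.12 on the log2 scale in CH (SD, n = 6) and 0.51 ± 0.36 in HF (SD, n = 8), with a two-sided exact permutation p = 0.0480. As an absolute log2 ratio of CPM, it averaged 0.14 ± 0.24 in CH and 0.52 ± 0.46 in HF, with an exact permutation p = 0.0926. Without steer 1639 the p-values were 0.0839 and 0.162 (exact permutation tests), so the difference between the breeds passed 0.05 in 1 of these 4 tests. The breeds were compared over unlike intervals. Steers 1639 and 5612, with the largest HF changes of the deviation (1.13 and 0.93), were followed from ZG to H2. No CH steer was compared over that interval. Steer 307 (CH) had libraries in both phases, at 83.6 and 83.2 CPM, but entered from H1 to H2. In addition, 2 CH steers ended under ZG with values by which the gene was chosen. Breed and interval therefore cannot be told apart in this comparison.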
